A study of Homo sapiens with 15 samples.

Results

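The comparison set 3 libraries of K562 cells exposed to 0.5 µM martinostat against 3 libraries of untreated K562 cells. These 6 libraries, of 15 in the series, were chosen by their dose labels alone and by no measured value. K562 is an established human cell line from a chronic myeloid leukaemia with the BCR-ABL1 fusion, and martinostat inhibits histone deacetylases (HDACs). The treated cells had received the drug for 24 h, the controls are labelled untreated with no vehicle named, and both groups were grown in the same serum-containing medium. All libraries come from this single line, so nothing here extends to other leukaemia cells, and the labels number biological replicates 1 to 3 in each group. The question of the comparison was which genes this dose changes. The 3 libraries at 0.25 µM and the 3 at 1 µM served only to show where 0.5 µM differed from its neighbouring doses.

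HDACs remove acetyl groups from histones and other proteins, and they work in co-repressor complexes such as NuRD, CoREST and NCOR that keep many genes at low levels. Inhibitors of these enzymes raise acetylation, and they are known to induce the cell cycle inhibitor p21 and genes that are silent in the treated cell type, while lowering many highly transcribed genes. K562 cells are erythroid in character: they depend on the transcription factors GATA1 and TAL1, transcribe embryonic and fetal globin genes, and signal from BCR-ABL1 through JAK and STAT5 and the RAS and PI3K pathways.

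Library totals were 29555379 to 32805574 counts in untreated cells and 23755510, 25179689 and 30127199 counts for replicates 1, 2 and 3 at 0.5 µM. Replicate 3 at 0.5 µM stood apart from its group: 22713 genes had at least 10 counts there, against 20257 and 20063 in replicates 1 and 2, and its 50 genes with the most counts held 13.0% of the library, against 18.6% and 17.7%. Genes named below are therefore given with and without this library where it changed their call. Of 10 markers of the erythroid side of K562, 9 were at or above 1 CPM (counts scaled to library size, so that libraries can be compared) in every library of both groups. Markers of T cells summed to 3.55 to 5.07 CPM untreated and 3.36 to 4.73 CPM at 0.5 µM, with CD2 and LCK at 0 counts in untreated cells. Those of B cells summed to 2.36 to 4.95 and 10.0 to 17.2 CPM, of mature myeloid cells to 15.6 to 18.2 and 36.8 to 45.9 CPM, of fibroblasts to 21.9 to 25.4 and 347 to 450 CPM and of epithelia to 569 to 605 and 1121 to 1893 CPM. At 0.5 µM the last 2 sums were mostly COL1A1 and KRT19, and in untreated cells COL1A2 and KRT19. Whether other cells had any part in these sums was not tested. The markers MS4A1, CD79B, MPO, ELANE, LUM and KRT5 were at 0 counts in untreated cells.

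Martinostat at 0.5 µM changed most measured genes. Of 23711 genes tested, 15872 were called at an adjusted p under 0.05 (66.9%, quasi-likelihood test of edgeR, p-values adjusted by Benjamini-Hochberg), 9336 of them higher (39.4%) and 6536 lower (27.6%). A change over 2-fold was called for 12370 genes (52.2%), of which 8040 were higher and 4330 lower. In 16566 genes (69.9%) no treated library overlapped an untreated one. Without replicate 3, 8967 of 24538 genes were called higher (36.5%) and 6557 lower (26.7%). The calls shared by both fits were 8454 higher and 6064 lower, with 0 genes called in opposite directions. With a background this large, a count within a gene list is read against 39.4% higher and 27.6% lower throughout. These shares cover all levels and are not matched to the level of a list. Of genes under 0.1 CPM in untreated cells 88.0% were called higher. Lower calls took 48.5% of genes at 10 to 100 CPM and 70.4% of those over 100 CPM. In a list's share, the level of its genes and their function cannot be told apart. In bulk RNA, fewer cells of a type and less RNA per cell cannot be told apart.

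Scaling set the balance of the calls. The median log2 fold change over all tested genes was 0.34 with the trimmed mean of M values (TMM), 0.42 with the size factors of DESeq2, 0.72 with library totals and 0.75 with TMM factors taken from genes of at least 10 CPM. The share of calls that were higher moved with it, from 58.8% to 61.0%, 70.2% and 71.1%. Fold changes below are from TMM, and where library totals ended a call of a named gene this is said beside it.

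The direction followed the level in untreated cells. Among 3737 genes under 0.1 CPM in untreated cells, 88.0% were called higher, while among 3066 genes over 100 CPM 70.4% were called lower and 7.21% higher. Median log2 fold changes ran from 5.50 in the lowest class through 1.04, 0.30 and -0.37 to -0.92 in the highest. A gene of the lowest class had to rise to be counted as measured at all, so its share is a description of these levels and not a test. The same holds for silent members of the gene lists below. By type of gene, 40.2% of 15640 protein-coding genes and 43.6% of 5055 long non-coding RNAs (lncRNAs) were called higher, and 34.6% and 12.5% lower. Together lncRNAs held 1.45% to 1.61% of the counts of untreated libraries and 4.52% to 4.92% at 0.5 µM, with no overlap. By chromosome the share called higher ran from 34.1% on chromosome 3 to 46.3% on chromosome 19.

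**Figure D1:**
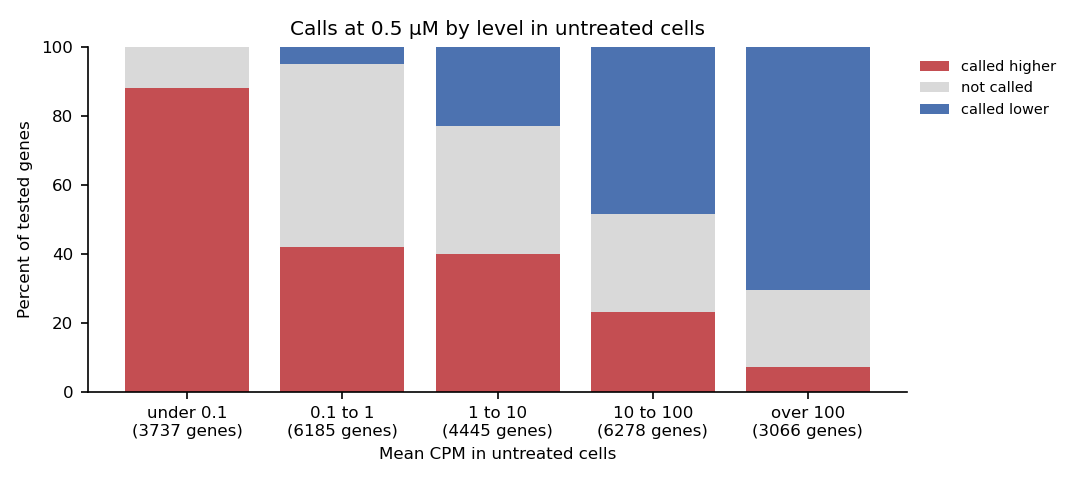
Share of tested genes called higher, called lower or not called at 0.5 µM against untreated (percent, vertical axis), by mean CPM in untreated cells (horizontal axis, 5 classes with their gene numbers). The higher share falls from 88.0% under 0.1 CPM to 7.21% over 100 CPM, and the lower share grows to 70.4%.

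At the far ends stood genes that were silent in untreated cells and genes that nearly disappeared. MIR7-3HG, the host gene of a microRNA, had 0 counts in untreated cells and 379, 343 and 478 CPM at 0.5 µM, at least 10118-fold higher against the limit of 3 counts over the group. NOVA2, a neuronal splicing factor, had 0 counts and then 70.4, 69.9 and 39.9 CPM (at least 1520-fold), ALPG, a placental-type alkaline phosphatase, 66.8, 68.4 and 58.4 CPM (at least 1633-fold) and SNCB, beta-synuclein of presynaptic endings, 61.2, 57.6 and 28.9 CPM (at least 1246-fold). All 4 were clear of untreated cells in every library, and replicate 3 was the lowest of its group for NOVA2, ALPG and SNCB and the highest for MIR7-3HG. Such limits cover counting error only. In all, 352 genes had 0 counts in the 3 untreated libraries and at least 1 CPM in each library at 0.5 µM, 276 of them protein-coding and 56 lncRNAs. Of genes with 0 counts untreated, 36 reached a mean of at least 10 CPM at 0.5 µM. In the other direction, 14 genes that averaged 10 CPM or more in untreated cells were under 1 CPM in each library at 0.5 µM.

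Among genes with some untreated signal, the largest increases were in ZCCHC12, a transcriptional co-activator, with 0.0818, 0 and 0.235 CPM untreated and 461, 456 and 473 CPM at 0.5 µM (log2 fold change 12.04, SE 0.37), and in COL5A3, a fibrillar collagen chain, with at most 0.0391 CPM untreated and 82.1, 89.8 and 95.9 CPM at 0.5 µM. Also among the highest were an lncRNA known only by the identifier ENSG00000287064 (632, 751 and 379 CPM), TMEM59L (93.9, 114 and 103 CPM) and COL6A2, a collagen VI chain (107, 110 and 79.4 CPM), all at or under 0.313 CPM in each untreated library. The lowest fold change was that of HEMGN, a nuclear factor of erythroid precursors: it fell from 246, 316 and 276 CPM to 0.618, 0.502 and 0.680 CPM (log2 fold change -8.83, SE 0.25). SLC6A19, an amino acid transporter, went from 88.5, 97.4 and 108 CPM to 1.41, 1.67 and 0.544 CPM, and the lncRNAs ENSG00000288046 and PCAT14 from 25.6 to 33.0 and 18.4 to 22.3 CPM to at most 0.335 and 0.530 CPM. KLF1 and CBFA2T3, described next, completed the 6 lowest.

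Promoters of 7 genes are shown because their genes moved furthest or mark a pathway followed here: CDKN1A, SNCB, NOVA2 and MT2A rose, and KLF1, HEMGN and STAT5A fell. Each is 300 bases from 250 before to 50 after the first RefSeq start listed for the gene (GRCh38.p14), 5′ to 3′ on the strand of the gene. In all windows but that of MT2A, capitals mark the GC box GGGCGG, the TATA box TATAAA and the CCAAT box on either strand. In MT2A capitals mark only the core of the metal response element, TGCGCNC or TGCACNC, on either strand. GC, TATA and CCAAT boxes were not marked or counted in the MT2A window. Overlapping matches run together.
CDKN1A, chr6:36678464-36678763, plus strand: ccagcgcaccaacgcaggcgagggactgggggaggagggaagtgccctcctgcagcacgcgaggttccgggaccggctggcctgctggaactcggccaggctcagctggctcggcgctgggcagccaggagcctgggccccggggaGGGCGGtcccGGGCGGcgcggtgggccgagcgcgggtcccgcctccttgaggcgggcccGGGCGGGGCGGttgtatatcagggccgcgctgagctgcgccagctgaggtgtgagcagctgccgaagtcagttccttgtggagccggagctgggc
SNCB, chr5:176630485-176630784, minus strand: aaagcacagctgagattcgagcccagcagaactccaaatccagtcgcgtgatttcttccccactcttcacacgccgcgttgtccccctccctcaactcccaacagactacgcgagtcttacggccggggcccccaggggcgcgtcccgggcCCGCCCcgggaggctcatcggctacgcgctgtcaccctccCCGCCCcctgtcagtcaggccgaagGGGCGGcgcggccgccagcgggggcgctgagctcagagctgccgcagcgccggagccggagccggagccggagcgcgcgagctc
NOVA2, chr19:45973816-45974115, minus strand: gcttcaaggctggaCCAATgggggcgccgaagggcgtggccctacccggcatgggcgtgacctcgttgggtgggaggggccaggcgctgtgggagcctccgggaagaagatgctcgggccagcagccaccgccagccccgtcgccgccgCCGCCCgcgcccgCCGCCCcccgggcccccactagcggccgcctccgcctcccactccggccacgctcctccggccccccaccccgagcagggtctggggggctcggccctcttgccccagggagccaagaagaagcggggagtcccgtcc
MT2A, chr16:56608334-56608633, plus strand: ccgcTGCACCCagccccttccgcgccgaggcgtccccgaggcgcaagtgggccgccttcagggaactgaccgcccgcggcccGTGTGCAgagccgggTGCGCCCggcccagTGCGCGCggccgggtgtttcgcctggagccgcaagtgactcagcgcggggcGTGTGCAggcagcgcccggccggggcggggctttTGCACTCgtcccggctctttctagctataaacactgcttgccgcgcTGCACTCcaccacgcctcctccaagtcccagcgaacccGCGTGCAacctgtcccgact
KLF1, chr19:12887152-12887451, minus strand: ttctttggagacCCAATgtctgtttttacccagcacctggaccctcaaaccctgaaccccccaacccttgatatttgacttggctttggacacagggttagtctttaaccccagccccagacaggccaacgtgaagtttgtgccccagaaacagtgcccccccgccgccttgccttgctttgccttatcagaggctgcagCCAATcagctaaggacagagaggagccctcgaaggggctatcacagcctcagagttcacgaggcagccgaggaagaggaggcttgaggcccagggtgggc
HEMGN, chr9:97944803-97945102, minus strand: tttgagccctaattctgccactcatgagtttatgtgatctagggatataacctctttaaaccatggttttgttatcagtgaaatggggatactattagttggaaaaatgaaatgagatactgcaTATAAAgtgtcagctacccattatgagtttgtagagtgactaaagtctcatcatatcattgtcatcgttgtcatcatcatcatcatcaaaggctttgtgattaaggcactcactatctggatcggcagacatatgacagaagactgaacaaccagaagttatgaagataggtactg
STAT5A, chr17:42287189-42287488, plus strand: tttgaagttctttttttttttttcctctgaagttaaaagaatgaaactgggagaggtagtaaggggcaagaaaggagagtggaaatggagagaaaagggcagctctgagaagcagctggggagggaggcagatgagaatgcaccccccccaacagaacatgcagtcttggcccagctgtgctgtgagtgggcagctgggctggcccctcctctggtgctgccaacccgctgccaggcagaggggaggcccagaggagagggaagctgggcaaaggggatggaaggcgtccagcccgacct
The CDKN1A window held 29 CpG dinucleotides and 4 GC boxes, that of SNCB 35 CpG and 3 GC boxes, that of NOVA2 30 CpG and 2 GC boxes and that of MT2A 37 CpG and 8 metal response cores. The 3 windows of the genes that fell were poorer: KLF1 held 6 CpG and 2 CCAAT boxes, HEMGN 2 CpG and 1 TATA box, and STAT5A 3 CpG and none of these motifs. The STAT5A window ends before the GENCODE start of the gene at 42287547, so its values hold for the RefSeq start used here only.

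Those single windows were not typical of the classes. Of 23711 tested genes, 14021 matched a promoter by symbol. The median CpG number was 21 in 4571 promoters of genes over 2-fold higher, 26 in 2934 of genes over 2-fold lower and 23 in 3734 of genes not called, against 14 in all 27305 promoters. A GC box was present in 62.4% of the higher, 66% of the lower and 60.8% of the uncalled genes, and in 44.6% of all promoters, and a CCAAT box in 35.7%, 35.5% and 36.6%, with 35.7% of all. TATA boxes were found in 8.18%, 6.17% and 7.28% (12% of all). Larger gaps were seen for CGGAAG, the core bound by ETS factors, in 18.6% of the higher, 34% of the lower and 30.6% of the uncalled promoters (19.9% of all), and for CACGTG, the E-box of MYC and MAX, in 7.18%, 13.1% and 9.08% (7.43% of all). Since level and direction moved together, the same was read among genes over 10 CPM in untreated cells: CGGAAG stood in 30.2%, 36.4% and 39.6% and CACGTG in 8.36%, 14% and 9.83% of the higher, lower and uncalled genes, and GC boxes in 80.6%, 69.5% and 73.5%. All motifs were searched on both strands, and a match says only that the letters are there.

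Erythroid regulators fell nearly as a group: 12 of 14 were called lower and 1 higher, with a median log2 fold change of -3.32. KLF1, the activator of adult globin and red cell membrane genes, had 439, 377 and 404 CPM untreated and 3.40, 3.05 and 2.07 CPM at 0.5 µM (log2 fold change -7.18, SE 0.26, adjusted p = 1.0e-13). GATA1, the master regulator of the lineage, had 326, 335 and 323 CPM and then 15.7, 14.2 and 16.6 CPM (-4.40, SE 0.18). Both groups were tight and far apart in every library, replicate 3 included. CBFA2T3, a co-repressor that binds TAL1 complexes, went from 187, 173 and 213 CPM to 2.56, 2.80 and 3.18 CPM (-6.06, SE 0.20), and MYB, a factor of haematopoietic progenitors, from 203, 205 and 207 CPM to 26.8, 32.9 and 49.6 CPM (-2.49, SE 0.21). GATA1 partners chosen after their values were seen also fell: LMO2 at -5.38, GFI1B at -5.74, NFE2 at -4.14, TAL1 at -2.26 and LDB1 at -1.95. LYL1, a relative of TAL1, was not called (283, 276 and 296 CPM against 268, 201 and 187 CPM, log2 fold change -0.38). The member that rose was BCL11A, the repressor of fetal globin, from 0.0818, 0.232 and 0.235 CPM to 2.38, 2.76 and 3.13 CPM (3.88, SE 0.36).

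Globin genes fell less evenly, with 7 of 10 tested called lower, 0 higher and 3 not called (median -1.88). HBZ, the embryonic alpha-type chain, had 986, 1090 and 1081 CPM untreated and 81.6, 92.9 and 20.7 CPM at 0.5 µM (-4.02, SE 0.51). The fetal HBG1 had 147, 122 and 109 CPM and then 147, 89.6 and 38.5 CPM and was not called (-0.46, SE 0.43). Its treated libraries ran from far below the untreated ones to the level of the highest of them. HBG2 was called at -1.25 with all libraries (347, 396 and 360 against 221, 163 and 79.7 CPM) and not without replicate 3 (-0.94), and 55.6% of its exon bases lie under another gene of the same strand. Replicate 3 was the lowest treated library for all 3 of these genes. AHSP, the chaperone of free alpha-globin, had 1.88, 2.16 and 1.49 CPM and then 0.177, 0 and 0 CPM. Without replicate 3, 6 globin genes were called lower.

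Heme synthesis split at its first steps. Of 13 genes 10 were called lower and 2 higher. ALAS2, the erythroid form of the entry enzyme, fell from 190, 205 and 224 CPM to 34.5, 34.7 and 14.8 CPM (-2.89, SE 0.24). ALAS1, the form used outside red cells, rose from 55.2, 61.7 and 57.1 CPM to 312, 318 and 277 CPM (2.38, SE 0.15), and the other gene that rose was ALAD, the next enzyme (2.16, SE 0.16). UROD, further down the pathway, fell from 694, 662 and 656 CPM to 163, 138 and 97.5 CPM (-2.34, SE 0.20).

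Iron and red cell membrane genes were called lower in 15 of 20 and higher in 2, and 11 of the 13 membrane genes fell, with a median of -3.63. TFRC, the transferrin receptor, went from 1125, 1344 and 1216 CPM to 462, 510 and 428 CPM (-1.40, SE 0.16). EPOR, the erythropoietin receptor, fell little, from 29.1, 28.9 and 27.1 CPM to 18.4, 19.5 and 18.4 CPM (-0.60, SE 0.14), and was not called with library totals (-0.22). The genes that rose were the ferritin chains: FTL from 2294, 2068 and 2144 CPM to 8123, 5222 and 3393 CPM (1.36, SE 0.32), and FTH1 at 0.86 (SE 0.24), with 63.2% of its exon bases under an exon of the opposite strand. Every treated library of FTL was above the untreated ones although they spread widely among themselves.

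Genes of other blood lineages did not follow. Of 13 tested megakaryocyte and platelet genes 8 rose and 1 fell (median 1.75; 8 and 3 without replicate 3), and of 13 tested myeloid and stem cell genes 9 rose and 2 fell (median 1.24). Silent members of both lists, such as CD34, could be tested only through treated libraries, so these counts are a description. Restricted to at least 10 counts in every library, 8 members of each list could be tested. Of these, 5 megakaryocyte and platelet genes were higher and 0 lower, and 5 myeloid and stem cell genes were higher and 2 lower. VWF, the carrier of clotting factor VIII, had 0, 0.0772 and 0 CPM and then 2.78, 2.76 and 3.26 CPM (6.58, SE 0.62), while TUBB1, the platelet tubulin, fell from 1.84, 2.59 and 2.27 CPM to at most 0.353 CPM. GATA2, which precedes GATA1 in development, was not called (247, 261 and 263 against 207, 253 and 216 CPM). PF4 and GP1BB had 0 counts in all 6 libraries, but 52.1% and 100% of their exon bases lie under another gene of the same strand, where reads may not have been counted. CEBPB, a myeloid transcription factor, rose from 43.5, 45.3 and 39.0 CPM to 166, 190 and 138 CPM (1.95, SE 0.17), and CD33, a myeloid surface lectin, fell from 94.1, 97.7 and 93.7 CPM to 25.1, 25.1 and 29.3 CPM (-1.84, SE 0.13). CD34 had 0 counts untreated and 0.265 to 0.502 CPM at 0.5 µM. ELANE was not tested, and KIT was called higher at 0.46 with all libraries and not without replicate 3.

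**Figure D2:**
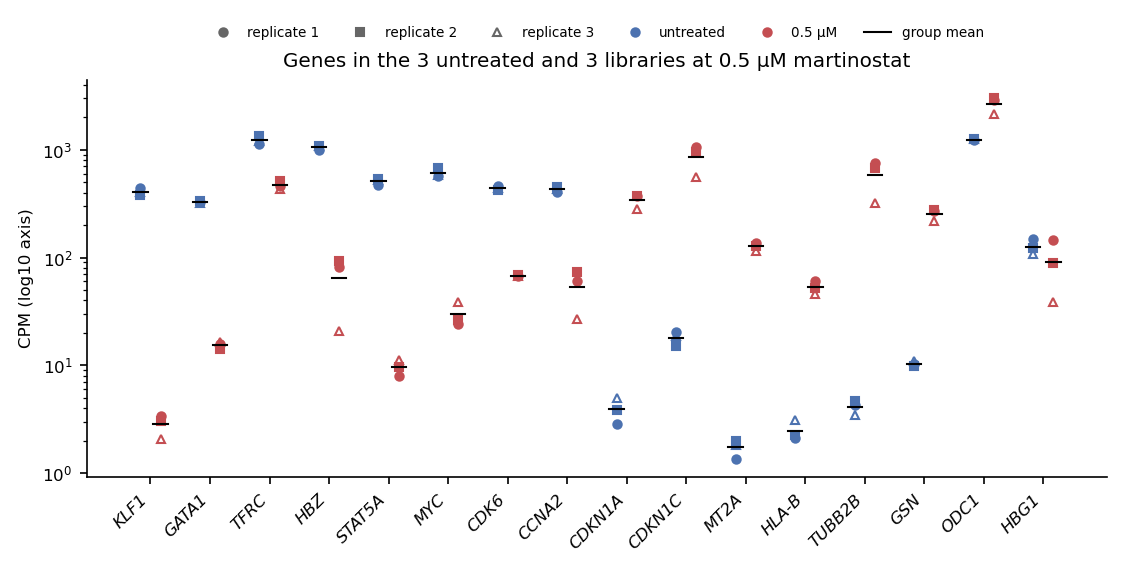
CPM (log10 vertical axis) of 16 genes in each of the 3 untreated and 3 treated libraries, with replicate 3 as an open triangle and the group mean as a bar. KLF1, GATA1 and STAT5A are far lower and CDKN1A, MT2A and GSN far higher in every treated library, while the treated libraries of HBG1 run from 38.5 to 147 CPM across the untreated ones.

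Cyclins and cyclin-dependent kinases (CDKs) were called lower in 13 of 15 and higher in 0 (median -1.64). CDK6, the partner of D cyclins, went from 465, 420 and 439 CPM to 67.4, 69.6 and 66.9 CPM (-2.70, SE 0.19). CCNA2, cyclin A2 of S and G2 phase, had 405, 447 and 433 CPM and then 60.4, 73.2 and 26.8 CPM (-3.0, SE 0.31). Replicate 3 was the lowest library for CCNA2 and did not differ in this way for CDK6. CDC25A, the phosphatase that activates CDKs, fell from 176, 197 and 186 CPM to 25.5, 24.9 and 9.33 CPM (-3.24, SE 0.28), CCND3 by 1.13 and CCND1 by 1.26 on the log2 scale. The phosphatases CDC25B and CDC25C were not called, and without replicate 3 CDC25B was called higher (0.49).

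The CDK inhibitors moved in both directions, 3 higher and 2 lower of 5 tested. CDKN1A, which encodes p21, rose from 2.86, 3.82 and 5.01 CPM to 369, 371 and 284 CPM (6.45, SE 0.25, adjusted p = 2.1e-13). CDKN1C, which encodes p57, rose from 20.4, 15.0 and 18.5 CPM to 1051, 963 and 553 CPM (5.57, SE 0.30). CDKN1B, which encodes p27 of the same family, fell from 65.9, 73.8 and 72.3 CPM to 28.8, 30.4 and 32.1 CPM (-1.21, SE 0.12). The remaining calls were CDKN2D at 2.82 and CDKN2C at -0.84, and CDKN2A and CDKN2B had 0 counts in all 6 libraries.

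DNA replication genes were called lower in 21 of 24 (median -1.86), mitosis genes in 17 of 20 (median -1.34) and DNA repair genes in 19 of 26 with 2 higher (median -1.12). MCM7, a subunit of the replicative helicase, went from 1291, 1290 and 1259 CPM to 310, 306 and 155 CPM (-2.32, SE 0.24). TYMS, thymidylate synthase, fell from 74.9, 86.1 and 84.5 CPM to 2.16, 2.80 and 2.5 CPM (-5.03, SE 0.20), with 47.9% of its exon bases under an exon of the opposite strand. The replication genes not called were CDT1, RRM2 and TK1. TK1, thymidine kinase of S phase, had 234, 210 and 216 CPM untreated and 603, 457 and 121 CPM at 0.5 µM: replicates 1 and 2 were above and replicate 3 below every untreated library, and the gene was called higher without replicate 3 (1.27). MAD2L1 of the spindle checkpoint fell from 184, 204 and 189 CPM to 22.0, 23.3 and 10.7 CPM (-3.37, SE 0.24), and TOP2A, which untangles chromosomes, by 0.72 (SE 0.20). In repair, all 10 genes of homologous recombination and the Fanconi pathway were called lower, XRCC5 fell by 1.67 and ERCC1, an endonuclease subunit, rose by 1.01 (SE 0.28). In replicate 3 the replication genes lay a median of 0.95 below replicates 1 and 2 on the log2 scale. Without it the counts were 21 lower and 1 higher, 17 lower, and 18 lower and 2 higher.

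**Figure D3:**
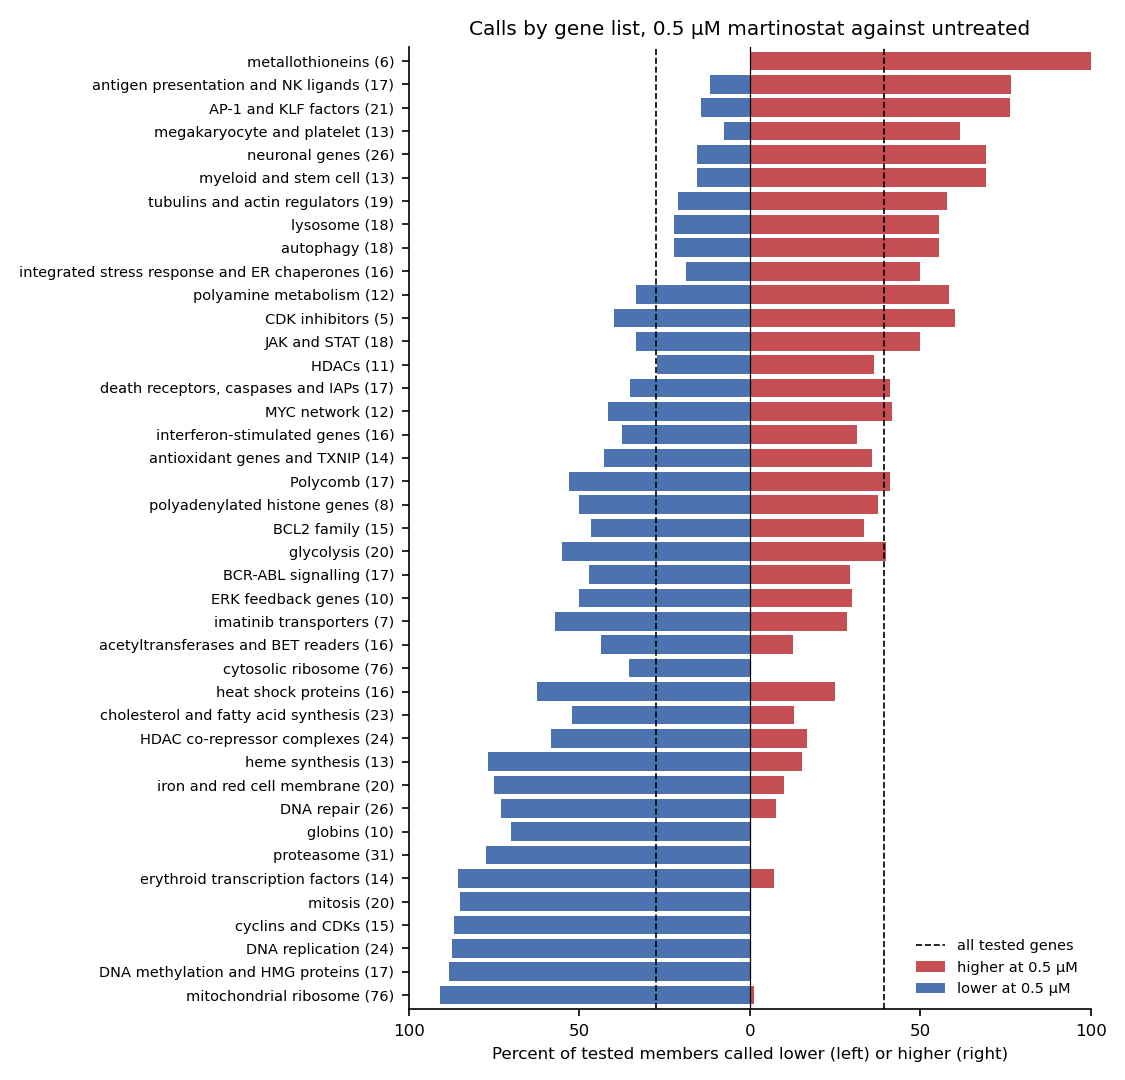
Percent of the tested members of 41 gene lists (number tested in parentheses) called higher (right) or lower (left) at 0.5 µM against untreated. The dashed lines are the shares of all tested genes, 39.4% higher and 27.6% lower, not matched for the level in untreated cells. Mitochondrial ribosome, DNA methylation and HMG, replication, cyclin and erythroid transcription factor lists lie furthest to the left, and metallothioneins, with 6 of 6 higher, furthest to the right. Members silent in untreated cells could be tested only through treated libraries.

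The BCR-ABL pathway was mixed at the level of mRNA: 5 of 17 genes were called higher and 8 lower (median -0.22), and with library totals 7 higher and 4 lower (median 0.15). Counts per gene do not separate the fusion transcript from the normal alleles. ABL1 had 557, 566 and 648 CPM and then 453, 519 and 371 CPM and was called at -0.40 (SE 0.17, adjusted p = 0.049), but in 2 of 14 alternatives only, and it was not called without replicate 3 or with library totals (-0.04). BCR fell from 429, 415 and 486 CPM to 302, 361 and 240 CPM (-0.56, SE 0.18) and was not called with library totals (-0.20). AKT1, a survival kinase downstream of PI3K, fell from 182, 191 and 197 CPM to 40.4, 51.9 and 35 CPM (-2.16, SE 0.15).

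In the JAK and STAT list 9 of 18 genes rose and 6 fell. The transcription factors that BCR-ABL1 activates most directly fell: STAT5A from 468, 533 and 529 CPM to 7.95, 9.75 and 11.2 CPM (-5.72, SE 0.18, adjusted p = 1.6e-14) and STAT5B from 242, 290 and 288 CPM to 34.9, 37.1 and 44.4 CPM (-2.82, SE 0.17). JAK2 fell from 34.3, 34.8 and 26.3 CPM to 5.79, 6.82 and 7.21 CPM (-2.26, SE 0.18). STAT4 went from 0 counts to 0.442, 0.544 and 1.01 CPM. After their values were seen, JAK3 (7.10, SE 0.32), SOCS3 (3.07, SE 0.18) and STAT6 (-2.74, SE 0.23) were added. Known STAT5 targets did not move together: PIM1, a survival kinase, fell from 442, 430 and 384 CPM to 162, 174 and 240 CPM (-1.12, SE 0.17), and CISH, a feedback inhibitor, was not called (-0.34, and 0.09 with library totals) and was called lower without replicate 3 (-0.65).

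Of the BCL2 family, 5 of 15 tested genes rose and 7 fell (median -0.08), and with library totals 6 rose and 3 fell (median 0.27). The pro-apoptotic BIK rose from 0, 0.0386 and 0 CPM to 5.61, 5.61 and 5.22 CPM (8.29, SE 0.55), and BMF, of the same BH3-only class and chosen after its values were seen, from 2.62, 3.05 and 2.74 CPM to 73.8, 79.2 and 83.6 CPM (4.81, SE 0.18). BCL2L11, which encodes BIM, fell by 0.51 on the log2 scale (SE 0.16) and was not called with library totals, and BID, which links death receptors to mitochondria, fell from 111, 109 and 98.1 CPM to 14.1, 10.5 and 7.10 CPM (-3.33, SE 0.25). Among the protective members, BCL2L1 fell from 129, 129 and 137 CPM to 35.1, 39.7 and 29.9 CPM (-1.92, SE 0.15) with 41.3% of its exon bases under an exon of the opposite strand, and MCL1 rose from 323, 340 and 346 CPM to 805, 894 and 908 CPM (1.37, SE 0.13). Death receptors, caspases and inhibitors of apoptosis were mixed too (7 of 17 higher, 6 lower). Of the paired TRAIL receptors, TNFRSF10B rose from 43.6, 50.5 and 46.9 CPM to 246, 287 and 252 CPM (2.48, SE 0.17) and TNFRSF10A fell from 49.8, 45.9 and 47.9 CPM to 6.36, 8.20 and 7.31 CPM (-2.71, SE 0.14). BIRC3, an inhibitor of apoptosis, rose from at most 0.573 CPM to 5.43, 7.49 and 7.70 CPM.

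HDAC genes were not lowered as a class: 4 of 11 rose and 3 fell (median -0.02, 0.39 with library totals). These counts lay near the shares of all tested genes, 39.4% higher and 27.6% lower. HDAC11, the class IV enzyme, rose from 6.99, 6.18 and 5.99 CPM to 28.7, 21.8 and 16.4 CPM (1.80, SE 0.23), and HDAC7, of class IIa, fell from 139, 135 and 147 CPM to 11.7, 13.2 and 17.7 CPM (-3.30, SE 0.18). HDAC1 was called higher with all libraries (240, 266 and 247 against 292, 315 and 438 CPM, 0.47) and not without replicate 3 (0.27). HDAC3 had 112, 120 and 123 against 116, 120 and 114 CPM and was not called (-0.02, SE 0.12), but it was called higher with library totals (0.36).

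Partners of the HDACs were called lower more often. Of 24 co-repressor genes 14 fell and 4 rose (median -0.71), and in NuRD 9 of 11 fell: its remodeller CHD3 went from 185, 187 and 208 CPM to 24.4, 26.1 and 37.3 CPM (-2.72, SE 0.18) and GATAD2A from 608, 576 and 605 CPM to 226, 232 and 135 CPM (-1.59, SE 0.23). RCOR2 of CoREST rose (1.29, SE 0.23). With library totals the list gave 12 lower and 9 higher. Acetyltransferases, which oppose the HDACs, were called lower in 7 of 10 and higher in 0, with KAT2A at -2.30 (SE 0.18), and of 6 genes for acetyl-lysine readers and the elongation factor P-TEFb 2 rose. HEXIM1, the inhibitor of P-TEFb, rose from 44.8, 49.8 and 43.6 CPM to 256, 269 and 263 CPM (2.51, SE 0.15), and BRD2 was not called (0.11). With library totals 6 genes of this list rose and 6 fell. Polycomb genes fell in 9 of 17 and rose in 7, with PHF19 of PRC2 from 406, 419 and 447 CPM to 27.1, 28.4 and 21.6 CPM (-4.05, SE 0.15) and CBX7 of PRC1 from 2.13, 2.01 and 2.66 CPM to 9.85, 9.04 and 16.2 CPM (2.37, SE 0.24); with library totals 8 rose and 5 fell. DNA methylation and high-mobility-group (HMG) genes were lower in 15 of 17, led by HMGB1 (785, 905 and 839 against 134, 112 and 81.4 CPM, -2.95, SE 0.18). Of 8 tested histone genes that carry poly(A) tails, 3 rose and 4 fell, with H2AZ1 at -2.48 (SE 0.19) and H3-3B at 0.52 (SE 0.15), and with library totals 4 rose and 3 fell.

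MYC, the transcription factor of growth, fell from 574, 670 and 587 CPM to 24.2, 26.4 and 38.5 CPM (-4.36, SE 0.27, adjusted p = 9.5e-11), and its partner MAX less (-0.78, SE 0.14). The network around them had 5 genes higher and 5 lower of 12, and MLXIPL, a glucose-sensing member, rose from 2.41, 2.16 and 2.00 CPM to 39.4, 49.3 and 73.6 CPM (4.63, SE 0.24). Polyamine metabolism split by role: 3 of 4 synthesis genes fell and all 3 catabolic genes rose. SRM, spermidine synthase, fell from 702, 670 and 829 CPM to 60.8, 72.3 and 28.7 CPM (-3.77, SE 0.28), whereas ODC1, the entry enzyme, rose from 1221, 1255 and 1250 CPM to 2865, 3025 and 2147 CPM (1.11, SE 0.18). AZIN2, which frees ODC1 from its inhibitor, rose from 0.818, 0.386 and 0.470 CPM to 28.0, 25.8 and 32.4 CPM (5.68, SE 0.27).

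Mitochondrial ribosome genes were called lower in 69 of 76 (median -1.37) and higher in 1, MRPL10 (0.60, SE 0.16), and the count of lower calls stayed between 63 and 70 in 14 alternatives. MRPL3 fell from 208, 237 and 216 CPM to 35.2, 38.2 and 22.1 CPM (-2.80, SE 0.22). Cytosolic ribosome genes behaved otherwise: 27 of 76 were lower and 0 higher (median -0.35), 10 lower and 4 higher with library totals, and 17 lower and 2 higher without replicate 3. RPS2 had 4537, 4168 and 4695 CPM and then 6275, 5269 and 2121 CPM, on both sides of the untreated libraries. Many ribosomal protein genes have near-identical pseudogenes, which makes their counts uncertain. Proteasome genes fell in 24 of 31 (median -1.08), with PSMD14 at -2.0 (SE 0.15) and PSMD2 not called (0.19).

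Metallothioneins, which bind zinc and copper, rose in 6 of 6 tested (median 6.45), and 3 further members were not tested. Members silent in untreated cells, such as MT1G, entered the test only through treated libraries. With at least 10 counts in every library 2 members could be tested, and these 2 rose. MT2A had 1.35, 2.01 and 1.84 CPM and then 135, 129 and 116 CPM (6.19, SE 0.20, adjusted p = 2.4e-14), and MT1G 0 counts and then 21.8, 24.4 and 19.5 CPM (at least 554-fold). MT2A is the gene whose promoter above held 8 metal response cores, letters that 29.3% of all promoters hold at least once. They stood in 34.2% of promoters of genes over 2-fold higher, 38.1% of those over 2-fold lower and 36.8% of those not called.

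Heat shock genes fell in 10 of 16 and rose in 4. HSPH1, the HSP110 chaperone, fell from 362, 417 and 418 CPM to 24.8, 23.4 and 11.9 CPM (-4.32, SE 0.22), HSP90AB1 from 5687, 6452 and 6620 CPM to 2898, 3057 and 2177 CPM, and HSPA2 went from 0 counts to 0.707, 1.34 and 0.625 CPM. In the integrated stress response and the endoplasmic reticulum, 8 of 16 genes rose and 3 fell. ATF3 rose from 5.07, 4.98 and 5.60 CPM to 36.3, 29.0 and 27.2 CPM (2.56, SE 0.18) and TRIB3, which is also driven by ATF4, fell from 167, 152 and 173 CPM to 27.4, 26.3 and 14.6 CPM (-2.85, SE 0.22). CALR, calreticulin, was called higher (0.75, SE 0.23). Antioxidant genes and alpha-arrestins gave 5 higher and 6 lower of 14. TXNIP, the inhibitor of thioredoxin, rose from 248, 269 and 221 CPM to 915, 1034 and 1492 CPM (2.22, SE 0.18), its relative ARRDC4 from 36.5, 43.7 and 37.0 CPM to 740, 731 and 826 CPM (4.29, SE 0.18), and the cystine importer SLC7A11 fell from 20.3, 25.5 and 23.6 CPM to 1.28, 0.920 and 2.34 CPM (-3.89, SE 0.32).

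Autophagy and lysosome genes rose more often than they fell, each list with 10 higher and 4 lower of 18. SQSTM1, the cargo receptor p62, rose from 147, 138 and 135 CPM to 669, 576 and 390 CPM (1.96, SE 0.21), and OPTN, another receptor, from 7.12, 7.42 and 6.34 CPM to 90.1, 86.6 and 69.9 CPM (3.56, SE 0.17). All 3 mitophagy genes that were called rose, of 4 listed. GABARAP was called lower at at most 1.31 CPM in any library, but not without replicate 3 nor with library totals, and 35.4% of its exon bases lie under another gene of the same strand. NEU1, lysosomal sialidase, rose from 62.9, 56.1 and 56.2 CPM to 1264, 1198 and 680 CPM (4.16, SE 0.25), LAMP2, a lysosomal membrane protein, from 314, 341 and 350 CPM to 866, 1048 and 995 CPM (1.53, SE 0.14), and HEXA fell by 0.93.

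Genes through which immune cells see a target rose: 13 of 17 tested genes of antigen presentation and natural killer (NK) cell ligands were higher and 2 lower (median 2.5). All 5 NK ligands were called higher. Silent members such as ULBP3 could be tested only through treated libraries, so these counts are a description. Restricted to at least 10 counts in every library, 13 members could be tested, 9 higher and 2 lower. ULBP3, a ligand of the NKG2D receptor, had 0 counts and then 16.1, 15.4 and 11.2 CPM (at least 360-fold). HLA-B rose from 2.13, 2.24 and 3.09 CPM to 60.8, 52.6 and 45.7 CPM (4.41, SE 0.20), with 32.7% of its exon bases under another gene of the same strand, while B2M, the shared light chain, was not called (295, 329 and 294 against 280, 273 and 186 CPM). TAPBP, which loads peptides, fell (-1.08, SE 0.16). Interferon-stimulated genes showed no common direction, with 5 higher and 6 lower of 16 (8 and 5 with library totals). IFITM1 fell from 304, 322 and 336 CPM to 24.6, 24.1 and 9.98 CPM (-4.04, SE 0.31), IFIT2 from 1.88, 1.58 and 2.11 CPM to at most 0.109 CPM, and MX1 went from 0 counts to 0.883, 0.502 and 0.218 CPM.

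Neuronal genes rose in 18 of 26 tested and fell in 4 (median 3.54), all 5 tested RNA-binding members among those that rose. Members silent in untreated cells entered the test only through treated libraries, so these counts are a description. With at least 10 counts in every library 14 members could be tested, 8 higher and 3 lower. NOVA2 and SNCB, given above, led the list. SYN1, synapsin I, was chosen after its values were seen and rose from 0.695, 0.811 and 0.978 CPM to 79.5, 104 and 45.7 CPM (6.52, SE 0.35). STMN3 and NEFH, which untreated K562 cells already transcribed, fell by 0.88 and 1.27. REST, the repressor of neuronal genes, fell to 31.0, 35.1 and 37.5 CPM (-0.68, SE 0.19), a call that was lost with library totals (-0.29).

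Among tubulins and actin regulators 11 of 19 rose and 4 fell, with tubulin isotypes in both directions. TUBB2B rose from 4.29, 4.63 and 3.44 CPM to 750, 681 and 318 CPM (7.14, SE 0.34), while TUBB fell from 2775, 3168 and 3163 CPM to 1488, 1577 and 951 CPM (-1.18, SE 0.19) and TUBA1B from 740, 791 and 794 CPM to 254, 281 and 116 CPM (-1.84, SE 0.26). GSN, gelsolin, rose from 10.4, 9.89 and 10.9 CPM to 269, 279 and 219 CPM (4.62, SE 0.17). Tubulin isotypes share sequence, and reads common to several could have been left out of the counts. TUBA1B has in addition 44% of its exon bases under an exon of the opposite strand.

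AP-1 and KLF factors rose in 16 of 21 and fell in 3 (median 1.53). KLF2 rose from 0.409, 0.541 and 0.665 CPM to 8.83, 14.1 and 15.8 CPM (4.57, SE 0.31), JUND from 184, 168 and 206 CPM to 490, 564 and 280 CPM (1.26, SE 0.25), and FOS, chosen after its values were seen, from 3.56, 4.60 and 4.15 CPM to 95.6, 95.1 and 86.9 CPM (4.49, SE 0.19). FOSL1 fell from 25.9, 28.3 and 30.8 CPM to 2.38, 1.17 and 0.816 CPM (-4.32, SE 0.29). Feedback genes of the ERK pathway gave 3 higher and 5 lower of 10, with the phosphatase DUSP5 at 2.63 (SE 0.19), SPRY2 at -2.21 (SE 0.21) and SPRED2 at -1.05 (SE 0.18). Of 7 tested transporters of imatinib 2 rose and 4 fell: ABCB1, the efflux pump P-glycoprotein, rose from 0.164, 0.309 and 0.352 CPM to 5.48, 6.78 and 11.0 CPM (4.80, SE 0.37), and ABCC4 fell from 210, 235 and 256 CPM to 34.2, 36.2 and 27.4 CPM (-2.84, SE 0.17).

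Glycolysis genes were lower in 11 of 20 and higher in 8, and in 9 each with library totals. HK2, hexokinase 2, fell from 220, 226 and 201 CPM to 18.6, 22.4 and 17.9 CPM (-3.46, SE 0.15) and ENO1, enolase, from 5376, 5651 and 6165 CPM to 1203, 1283 and 794 CPM (-2.39, SE 0.21), while ALDOC, a brain-type aldolase, rose from 9.16, 11.4 and 13.1 CPM to 160, 165 and 92.0 CPM (3.63, SE 0.25). Lipid synthesis genes were lower in 12 of 23 and higher in 3. FASN, fatty acid synthase, fell from 2418, 2264 and 3038 CPM to 380, 462 and 216 CPM (-2.87, SE 0.29), and INSIG1, a sensor of sterols, rose from 71.0, 83.3 and 109 CPM to 227, 271 and 234 CPM (1.48, SE 0.17). The medians of these lists, -0.39 and -0.40, lay near 0 with library totals (-0.02 in both).

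Replicate 3 at 0.5 µM differed from its group in an ordered way. Of 9894 genes that averaged 10 CPM or more at this dose, 656 were over 1 below and 304 over 1 above the mean of replicates 1 and 2 on the log2(CPM + 0.5) scale, whereas replicates 1 and 2 differed by over 1 in 43. Genes far above were HERC2P2 (113 CPM against 11.3 and 14.3), GOLGA8A (81.2 against 8.30 and 11.0), MEG3, an imprinted lncRNA (1586 against 200 and 216), RSRP1 (403 against 58.5 and 61.8) and GOLGA8B (83.1 against 10.8 and 14.1). GOLGA8 genes have near-identical copies and 93.1% of the exon bases of HERC2P2 lie under another gene of the same strand, which makes these values uncertain. Far below were TK1 (121 against 603 and 457), UBE2S, a ubiquitin-conjugating enzyme of mitosis (285 against 1405 and 1077), H4C3, a histone H4 gene (5.22 against 26.0 and 22.4), the pseudogene RPS18P5 (25.2 against 129 and 96.6) and the gene ENSG00000255823.5 (10.2 against 46.2 and 42.0). Of these 10, RSRP1 and H4C3 were called against untreated cells with all libraries, and RSRP1 was lost without replicate 3 (1.17). Without it UBE2S was called higher (1.48), as TK1 was.

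The gap moved with gene length and with gene group. Genes with under 1000 exon bases had a median of -0.70 and 34.8% of 224 lay over 1 below, those of 1000 to 2000 bases a median of -0.64, and those over 8000 bases a median of 0.02 with 0.684% of 2776 over 1 below and 4.11% over 1 above. Globins (-1.41), DNA replication (-0.95), cyclins and CDKs (-0.91), tubulins and actin regulators (-0.90) and the cytosolic ribosome (-0.90) had the lowest medians, while JAK and STAT (0.11), ERK feedback (0.13) and megakaryocyte genes (0.14) had the highest. Replicate 3 at 0.25 µM showed the same order over length, from -0.48 under 1000 bases to 0.04 over 8000, and all 10 genes named here had the same sign there. Gene groups were not compared at equal length, so length and group cannot be told apart in this gap. The part of RNA quality, depth or the state of the culture in the gap was not tested.

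**Figure D4:**
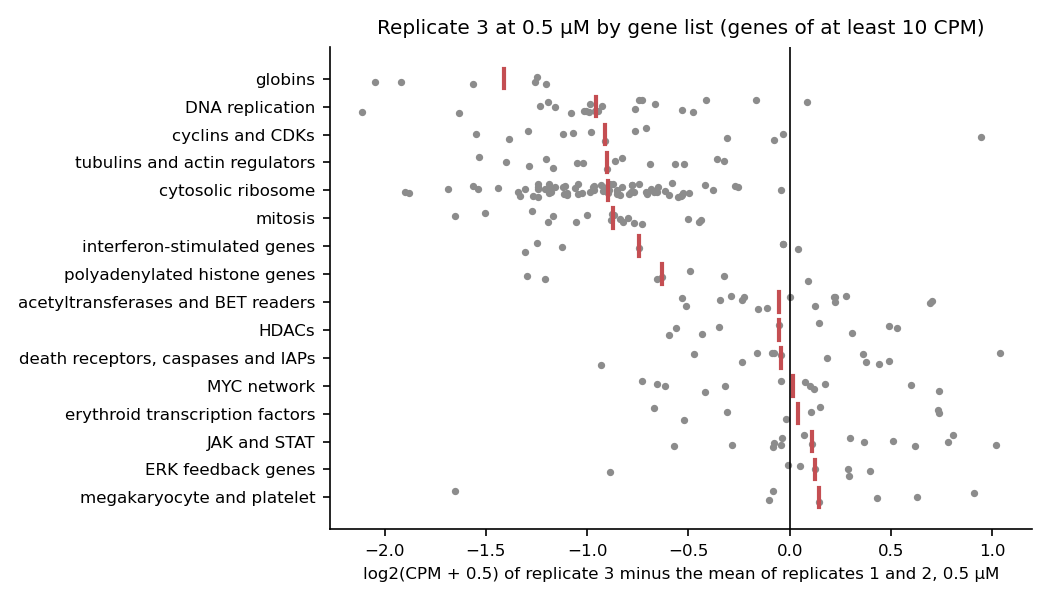
Difference of replicate 3 from the mean of replicates 1 and 2 at 0.5 µM, on the log2(CPM + 0.5) scale (horizontal axis), for genes of at least 10 CPM in the 8 lists with the lowest and the 8 with the highest medians. Points are genes and red bars medians, which run from -1.41 for globins to 0.14 for megakaryocyte genes.

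Against 0.25 µM, 7211 of 23711 genes were called (30.4%), 3409 higher (14.4%) and 3802 lower (16%), and 9437 had an unadjusted p under 0.05 (39.8%). Same-numbered libraries of these doses deviated together, most of all replicate 3, so the 6 libraries were also fitted with replicate number as a block. This fit called 9935 of 21562 genes (46.1%), 4871 higher and 5064 lower. Pairing of replicates 1 and 2 was not shown. Erythroid regulators were called lower again in 12 of 14, in both fits: KLF1 had 49.3 ± 16 CPM (SD, n = 3) at 0.25 µM and 2.84 ± 0.69 CPM at 0.5 µM (-4.13, SE 0.23), GATA1 173 ± 29 and 15.5 ± 1.2 CPM (-3.48, SE 0.17) and HEMGN 23.1 ± 5.2 and 0.60 ± 0.090 CPM (-5.24, SE 0.23). MYC fell from 286 ± 60 to 29.7 ± 7.7 CPM (-3.27, SE 0.26) and STAT5A from 77.9 ± 4.6 to 9.63 ± 1.6 CPM (-3.01, SE 0.16). ERK feedback genes gave 2 higher and 7 lower of 10 in both fits, and death receptors, caspases and inhibitors of apoptosis 5 higher and 9 lower of 17 (6 and 9 with the block). Other lists depended on the fit. The cytosolic ribosome had 0 of 76 called either way without the block and 18 higher and 2 lower with it, the mitochondrial ribosome 1 higher and 16 lower of 76 without and 5 and 31 with it, mitosis 6 lower of 20 without and 8 of 19 with it, and DNA replication 6 higher and 2 lower of 24 without and 12 and 4 with it. TK1 and UBE2S were called higher than at 0.25 µM with the block and not without it (0.69, SE 0.13, and 1.12, SE 0.10). MCM7 (258 ± 61 CPM at 0.25 µM against 257 ± 88 CPM at 0.5 µM) and CDC25A (19.6 ± 3.6 against 19.9 ± 9.2 CPM) were called in neither fit.

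The largest steps up were MIR7-3HG, from a mean of 10.2 CPM at 0.25 µM (5.29), the lncRNA LINC01511 from 2.18 CPM (4.46) to 45.5, 54.3 and 42.4 CPM, and FTCD, an enzyme of histidine breakdown, from 2.32 CPM (4.17) to 52.8, 45 and 26.8 CPM. The largest steps down were MIR223HG, the host of the myeloid miR-223, from 33.3 ± 35 CPM, a very uneven level, to 0, 0 and 0.408 CPM (-7.56), HEMGN, and LINC02772 from 92.1 ± 45 CPM to 1.37, 1.80 and 4.13 CPM (-5.19). Some genes were not ordered by dose: ODC1 had 1242 ± 19 CPM untreated, 246 ± 36 CPM at 0.25 µM and 2679 ± 467 CPM at 0.5 µM, and its rise over 0.25 µM was 3.44 (SE 0.19). PIM1 had 419 ± 30, 742 ± 48 and 192 ± 42 CPM (-1.95 against 0.25 µM), and CCND1 13.0 ± 1.3, 23.7 ± 5.2 and 5.37 ± 1.7 CPM (-2.13). Conversely HLA-B (54.0 ± 7.6 CPM at 0.25 µM against 53.0 ± 7.6 CPM) and GSN (238 ± 38 against 256 ± 32 CPM) were called between these doses in neither fit.

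Against 1 µM, 0 of 23711 genes were called by edgeR and 0 by DESeq2, and 372 had an unadjusted p under 0.05 (1.57%). KLF1 had 3.58 ± 0.45 CPM at 1 µM, CDKN1A 356 ± 51 CPM against 341 ± 50 CPM at 0.5 µM, CDKN1C 808 ± 186 against 855 ± 266 CPM, and MT2A 127 ± 18 against 127 ± 9.7 CPM. These differences were within the spread of the libraries, which does not show that the doses act alike.

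**Figure D5:**
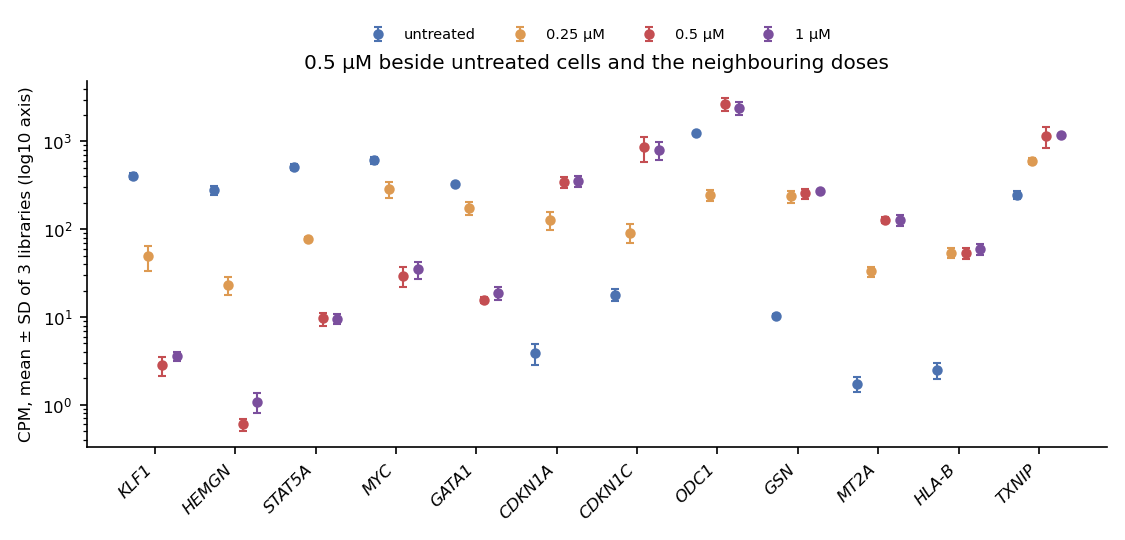
CPM (log10 vertical axis, mean ± SD of 3 libraries) of 12 genes in untreated cells and at 0.25, 0.5 and 1 µM. KLF1, HEMGN, STAT5A and MYC step down and CDKN1C and MT2A step up between 0.25 and 0.5 µM, ODC1 lies below untreated at 0.25 µM and above it at 0.5 µM, and 0.5 and 1 µM lie within each other's spread for most genes.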

How the data were processed

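RNA of K562 cells was poly(A)-selected, made into libraries with a directional kit and sequenced by the study. According to the methods of the study and the submitters' processing notes, reads were trimmed (Trim Galore 0.6.10, then Trimmomatic), aligned to hg38 with HISAT2 2.2.1, sorted with SAMtools 1.21 and counted per GENCODE gene with featureCounts 1.5.3. How strand was handled in counting was not given in the sources used here. The deposited table holds raw counts of 60649 genes, not normalised, which the authors made per library. Their FPKM files were not used here.

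Counts were tested with edgeR 4.0.16 (R 4.3.3) after filterByExpr, which kept 23711 genes, and TMM scaling. CPM were computed on the scaled library sizes, and they carry no gene length, so levels are compared between libraries and not between genes. All 15 libraries entered 1 fit with group as the only term (10 residual degrees of freedom), tested by robust quasi-likelihood F tests. A call is a Benjamini-Hochberg adjusted p under 0.05. The standard error (SE) is the absolute log2 fold change divided by the square root of F. DESeq2 1.42.0 was an alternative. On simulated counts of 18050 genes for 0.5 µM against untreated, 96% of genes changed by -2, 72% by -1, 56% by 1 and 94% by 2 on the log2 scale were recovered. Each step held 50 genes, and 12 of 171 calls were false. Unlike the data, the simulation changed few genes, as many up as down, and no replicate stood apart. The rates therefore do not cover the broad change and the scaling seen here. No libraries of a group agreed within sampling noise. Gene names, types and exon overlaps came from GENCODE 44 (hg38), which named 60463 identifiers, and promoters from RefSeq.

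Equal replicate numbers do not mark a shared batch in the labels. For each library the distance from its group mean was taken gene by gene. Between untreated cells and 0.5 µM, equal numbers correlated at 0.061, -0.039 and -0.103, so these were not treated as pairs. Between 0.25 and 0.5 µM they correlated at 0.406, 0.421 and 0.706 (across genes, which are not independent). Unequal numbers 1 and 2 of these doses also correlated, at 0.351 and 0.166, and unequal numbers with replicate 3 at -0.413 to -0.570. Distances from a group mean cancel out, so a replicate 3 that stands apart at both doses makes numbers 1 and 2 agree. Whether replicates 1 and 2 are pairs therefore cannot be told from these values, and the block is only an alternative. The values printed for 0.25 µM are from the fit without a block, and those of a fit with the block are given beside them where they differ in a call or by over 1.5 times.

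The comparison, the 41 gene lists (815 genes, 787 tested) and the genes named were chosen with earlier results of these data known. Named were 37 fixed genes, the 6 highest and 6 lowest called genes of at least 10 CPM whose groups did not overlap, the 4 silent genes with most CPM at 0.5 µM, in each list the called members with the highest and lowest fold change and the member with most CPM, the 5 genes furthest above and below in replicate 3, and the 3 largest steps from 0.25 µM in each direction. Other list members named in the text were chosen after their values were seen. Some genes that the rule names are not reported here.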

Additional observations from a re-analysis of the deposited data

How the results depend on the processing

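Of the alternatives tried, 1 moved the main counts by over 1.5 times: testing only genes with at least 10 counts in every library, which by construction leaves out genes that are silent in a group, gave 9784 calls against untreated cells, 5126 of them higher, and 6159 over 2-fold. Without 1 library of either group the calls ran from 15025 to 15704, higher from 8903 to 9375, lower from 6087 to 6557, over 2-fold from 12106 to 12621, and against 0.25 µM from 5810 to 8265. Library totals gave 11097 higher and 4713 lower. Fits on only the 6 libraries compared gave 13761 calls against untreated cells and 4841 against 0.25 µM.

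With replicate number as a block, the calls against untreated cells were 15816 (9225 higher, 6591 lower, 12301 over 2-fold), and against 0.25 µM 7161. In the 6 libraries at 0.25 and 0.5 µM alone, added after seeing the data, the block raised them to 9935. In the fit on all 15 libraries the block ended the calls of ABL1 and GABARAP and changed no other named call against untreated cells.

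The log2 fold change of ABL1 became 0.0016 when TMM factors came from genes at or above 10 CPM, and that of HDAC3, not called at -0.02, became 0.36 with library totals (called higher), 0.39 with those TMM factors and 0.27 with at least 10 counts in every library. Over 159 named genes, 2126 values kept their side of the threshold and, where called, their direction, 27 gained and 36 lost the call, and 4 turned in sign with a call in either fit. Among the 2126, 27 values of 12 genes that were called in neither fit changed sign. The cause was not tested. Of the counts within lists, 1054 stayed within 1.5 times and 94 did not. Depth limits genes at a few counts, whose fold changes rest on the limit of 3 counts.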
